A study of Gallus gallus with 2 samples.

Results

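Aminoacyl-tRNA synthetases, the enzymes that join each amino acid to its tRNA, were examined at the mRNA level in chick limb bud tissue given thalidomide or vehicle. The family was taken as a list of 34 gene symbols, matched to the deposited tables regardless of letter case, and 32 of the 34 had a row among 17108 annotated loci. VARS, the cytosolic valine enzyme, and SARS2, the mitochondrial serine enzyme, had no row under those symbols and are not described. The 32 comprise 18 cytosolic enzymes, 12 mitochondrial enzymes and 2, KARS and GARS, whose single gene serves both compartments. A name ending in 2 was read as mitochondrial, except that TARSL2, in which the ending marks a gene like the threonine enzyme, was put with the cytosolic enzymes.

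Limb buds of embryos at Hamburger-Hamilton stage 22 (day 4), when the bud is mostly mesenchyme under a layer of ectoderm, were dissected into pieces that stood at 37 °C for 4 h. Some pieces received thalidomide at 40 µg/ml and the others received the vehicle, 5% DMSO. Thalidomide is a drug that causes limb defects and binds cereblon, a part of a ubiquitin ligase. Whether its pieces contained DMSO as well, and how many embryos gave tissue, is not given in the labels. Each treatment is 1 RNA-seq library, so nothing below has a replicate check or a p-value. In such bulk tissue, fewer cells of a type and less RNA per cell cannot be told apart.

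As background, translation needs every tRNA charged with its own amino acid, and animals use one set of synthetases in the cytosol and another in the mitochondrion, mostly encoded by separate nuclear genes. The enzymes fall into class I and class II, which have unrelated catalytic domains. In vertebrates several cytosolic enzymes are held with the scaffold proteins AIMP1, AIMP2 and EEF1E1 in the multisynthetase complex. When amino acids run short, uncharged tRNA activates the kinase GCN2 and thereby translation of the transcription factor ATF4, whose known targets in mammals include several cytosolic synthetase genes.

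Synthetase mRNA levels differed widely between members and little between the libraries. Levels are in FPKM, in which fragments are counted per kilobase of transcript and per library depth. An order of different genes thus rests on the transcript lengths used, and no error in those lengths is considered here. GARS, the glycine enzyme (chromosome 2, 4337075 to 4359285 in galGal4), was highest in both libraries, with 114 FPKM with thalidomide and 107 FPKM with vehicle. That was above 96.6% of genes with thalidomide and 95.5% with vehicle, among the 10905 genes that reached 1 FPKM in at least 1 library and were kept. SARS, the serine enzyme, followed with 97.2 FPKM with thalidomide and 99.9 FPKM with vehicle. AARS, the alanine enzyme, and MARS, the methionine enzyme, took the next places, in a different order in each library. With thalidomide AARS had 80.7 FPKM and MARS 78.0 FPKM, and their deposited confidence limits overlapped. With vehicle AARS had 85.4 FPKM and MARS 91.8 FPKM, and the limits lay apart.

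Mitochondrial enzymes were at lower levels than most cytosolic ones. Their median was 6.68 FPKM with thalidomide and 7.30 FPKM with vehicle, against a cytosolic median of 41.2 FPKM in each library. The mitochondrial levels ran from WARS2, the tryptophan enzyme, with 3.02 FPKM with thalidomide and 2.86 FPKM with vehicle, to IARS2, the isoleucine enzyme, with 20.2 FPKM with thalidomide and 22.2 FPKM with vehicle. The ranges of the compartments overlapped, since TARSL2, the lowest cytosolic member, had 6.31 FPKM with thalidomide and 5.68 FPKM with vehicle. Summed over the 32 members the levels came to 1063 FPKM with thalidomide and 1088 FPKM with vehicle. These sums are 0.277% of the FPKM total with thalidomide and 0.255% with vehicle.

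**Figure D1:**
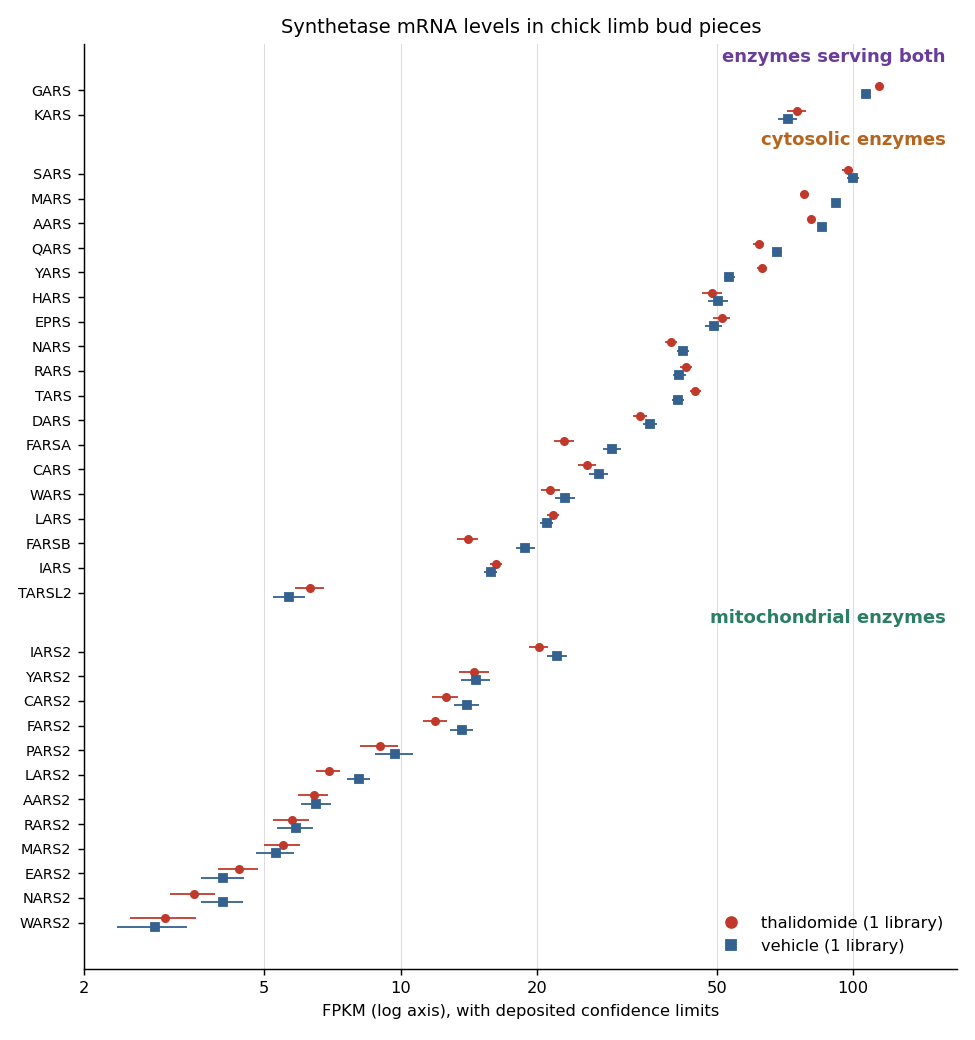
FPKM of each of the 32 synthetase mRNAs in the thalidomide library (circles) and the vehicle library (squares) on a log axis, with the deposited confidence limits as bars, grouped by the compartment the enzyme serves. GARS is highest, with 114 FPKM with thalidomide and 107 FPKM with vehicle, and WARS2 lowest, with 3.02 FPKM with thalidomide and 2.86 FPKM with vehicle.

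Most synthetase mRNAs lay close to the bulk of genes when thalidomide was set against vehicle. Ratios are log2 of thalidomide over vehicle with 1 added to both FPKM values, a scale that understates the change of low genes. The ± beside a ratio is propagated from the deposited limits and holds counting and assignment error inside each library, not differences between tissue samples. The median of the 32 ratios was −0.041, beside −0.048 for all genes kept. Quartiles were −0.13 and 0.05 for the members, and −0.19 and 0.11 for all genes. Ratios above 0 were found for 12 of 32 members (37.5%), against 41.0% of all genes.

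Large differences were few. No member was higher with thalidomide by 25% or more on this scale, as 6.14% of all genes were. FARSB and FARSA, the subunits of the cytosolic phenylalanine enzyme, were the 2 members for which vehicle exceeded thalidomide by 25% or more, as it did for 8.71% of all genes. No member reached 1.5-fold, which 0.954% of all genes passed upward and 0.972% downward.

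Deposited limits that did not overlap between the libraries gave a further measure. By it 3 of 32 members were higher with thalidomide, YARS, TARS and GARS, against 15.5% of all genes. By it 7 of 32 were lower, FARSB, FARSA, MARS, LARS2, FARS2, QARS and AARS, against 26.9% of all genes. In both directions together this was 31.3% of the members and 42.4% of all genes. These shares depend on the level of a gene, and counts among genes of like level are given further below.

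The zero of these ratios depends on scaling, since the FPKM totals were 384280 with thalidomide and 426632 with vehicle. Bringing both libraries to the same total moved the median of all genes by 0.13, and leaving mitochondrially encoded and haemoglobin genes out of that total moved it by 0.16. Over 4 scalings, namely these, the values as deposited and centring on the median of all genes, 12 members stayed above 0, 6 stayed below 0 and 14 changed sign. Each of the other scalings raises the ratios above those deposited. Members above 0 as deposited could therefore only stay there, and only those below 0 could change sign. With mitochondrially encoded and haemoglobin genes left out of the total, 26 of 32 members lay above 0, against 71.6% of all genes. Relative to the median of all genes, 17 of 32 members lay above it under each of the 4. That count could hardly change, because scaling moves all genes with the members. Without the filter on low values it was 15 of 32.

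**Figure D2:**
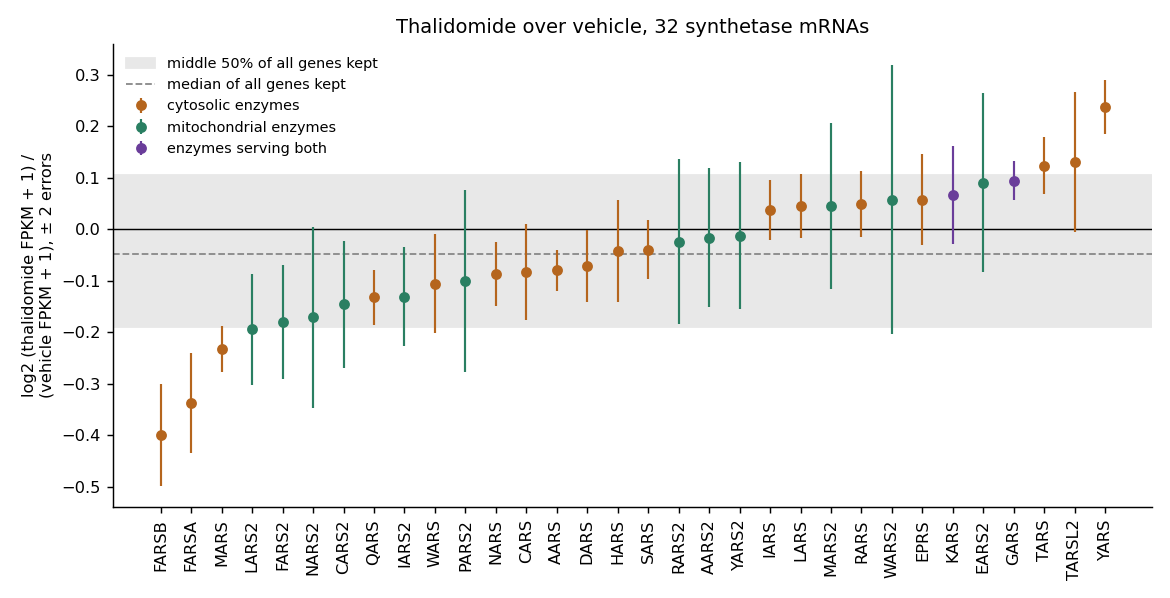
Log2 ratio of thalidomide over vehicle (FPKM + 1) for each synthetase mRNA, ordered from low to high, with bars of 2 propagated errors and colours for the compartment. The grey band spans the quartiles of all genes kept, whatever their level (−0.19 to 0.11), and the dashed line is their median (−0.048). FARSB, FARSA, MARS and LARS2 lie below the band and YARS, TARSL2 and TARS above it.

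The cytosolic phenylalanyl-tRNA synthetase stood lowest. It is built from alpha subunits, encoded by FARSA, and beta subunits, encoded by FARSB, and both mRNAs were lower with thalidomide. FARSB (chromosome 9, 7473709 to 7508041) had 14.1 FPKM with thalidomide, with limits of 13.3 and 14.8, and 18.9 FPKM with vehicle, with limits of 17.9 and 19.8. Its log2 ratio was −0.40 ± 0.05, and without the added 1 the vehicle level was 1.34 times the thalidomide level. FARSA, annotated on an unplaced scaffold, had 23.0 FPKM with thalidomide, with limits of 21.8 and 24.2, and 29.3 FPKM with vehicle, with limits of 28.0 and 30.7. Its log2 ratio was −0.34 ± 0.05, with a vehicle level 1.27 times the thalidomide level. These were the 2 of 32 members whose limits stayed apart on the lower side under all 4 scalings. With mitochondrially encoded and haemoglobin genes left out of the total, 7.75% of all genes had limits apart on that side. Among all genes kept, 4.48% had a lower ratio than FARSB and 7.67% a lower ratio than FARSA. These shares take genes of every level. Of 2028 genes with a mean from 25 FPKM to 5 times that level, as FARSA has, vehicle exceeded thalidomide by 25% or more for 258. Of 7268 genes with a mean of 2 to 25 FPKM, as FARSB has, it did so for 493.

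The subunit mRNAs kept nearly the same proportion to each other. FARSA over FARSB was 1.64 ± 0.06 in the thalidomide library and 1.56 ± 0.05 in the vehicle library, a difference of 0.073 ± 0.073 on the log2 scale, which does not depend on how the libraries are scaled. FARS2, the separate mitochondrial phenylalanine enzyme and a single polypeptide, had 11.9 FPKM with thalidomide and 13.6 FPKM with vehicle (log2 ratio −0.18 ± 0.06), with limits apart as deposited. Its ratio was −0.039 with both libraries at the same total and −0.0034 with mitochondrially encoded and haemoglobin genes left out of that total. All 3 phenylalanine genes were thus below 0, a grouping by amino acid that was made after the values were seen.

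MARS, LARS2 and NARS2 also stayed below 0 under the 4 scalings. MARS, on an unplaced scaffold, encodes the enzyme that charges both initiator and elongator methionine tRNA in the cytosol. It had 78.0 FPKM with thalidomide and 91.8 FPKM with vehicle (log2 ratio −0.23 ± 0.02), and its limits lay apart except with mitochondrially encoded and haemoglobin genes left out of the total. LARS2, the mitochondrial leucine enzyme, had 6.93 FPKM with thalidomide and 8.08 FPKM with vehicle (−0.19 ± 0.05), with limits apart as deposited. NARS2, the mitochondrial asparagine enzyme, had 3.49 FPKM with thalidomide and 4.06 FPKM with vehicle (−0.17 ± 0.09), with limits that overlapped.

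QARS and AARS depended on scaling for their direction. QARS, the glutamine enzyme, had 61.8 FPKM with thalidomide and 67.8 FPKM with vehicle, a log2 ratio of −0.13 ± 0.03 that became 0.017 with both libraries at the same total. AARS had a ratio of −0.079 ± 0.020 that became 0.070 there, and its limits then lay apart on the higher side.

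At the other end was YARS, the cytosolic tyrosine enzyme (chromosome 23, 5216609 to 5221415). It had 63.0 FPKM with thalidomide, with limits of 61.4 and 64.5, and 53.3 FPKM with vehicle, with limits of 51.8 and 54.7. The log2 ratio of 0.24 ± 0.03 was above that of 88.8% of all genes kept. TARS, the cytosolic threonine enzyme (chromosome Z, 9961226 to 9975739), had 44.8 FPKM with thalidomide and 41.1 FPKM with vehicle (0.12 ± 0.03). GARS had a ratio of 0.094 ± 0.019, and YARS, TARS and GARS were the members with limits apart on the higher side under all 4 scalings. The other scalings raise the ratios above those deposited, so limits apart on this side as deposited could not come to overlap.

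TARSL2 had a ratio near that of TARS, 0.13 ± 0.07, with limits that overlapped as deposited. TARS over TARSL2 was 7.10 ± 0.28 in the thalidomide library and 7.23 ± 0.31 in the vehicle library. The genes are related in sequence, as are HARS and HARS2, of which HARS2 had no row, and how fragments common to such copies were assigned is not stated in the labels.

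The other cytosolic enzymes, and KARS, had overlapping limits as deposited and ratios between −0.11 and 0.066. Centred on the median of all genes, IARS, LARS and RARS had limits apart on the higher side, as 20.1% of all genes did. With both libraries at the same total EPRS, KARS and SARS joined them, and the share of all genes was 32.1%. With mitochondrially encoded and haemoglobin genes left out of that total DARS, HARS and NARS did so too, while WARS and CARS still overlapped. The share of all genes was then 37.6%. Below 0 as deposited were WARS for tryptophan (−0.11), NARS for asparagine (−0.087), CARS for cysteine (−0.083), DARS for aspartate (−0.072), HARS for histidine (−0.042) and SARS (−0.039). All 6 were above 0 with both libraries at the same total. Above 0 as deposited were IARS for isoleucine (0.037), LARS for leucine (0.046), RARS for arginine (0.049), EPRS, the fused glutamate and proline enzyme (0.058), and KARS for lysine (0.066). KARS had 75.1 FPKM with thalidomide and 71.7 FPKM with vehicle, with limits 4.72% from the value with thalidomide and 4.80% with vehicle. HARS and EPRS had limits of similar width, from 4.36% to 4.97%, whereas those of QARS lay at most 2.71% from the value, so an overlap says less for KARS, HARS and EPRS, and likewise for WARS and CARS, whose limits lay 4.68% to 4.91% from the value. Over the 18 cytosolic members the median ratio was −0.057, with 7 above 0 and 11 below, where 41.0% of all genes lay above 0.

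Enzymes of the multisynthetase complex lay on both sides of 0. Of the 8 complex members 5 lay above it (EPRS, IARS, LARS, RARS and KARS) and 3 below (DARS, MARS and QARS), with a median of 0.041. The 12 others that act in the cytosol had a median of −0.061, with 4 above 0 and 8 below, and among them were both FARSB and YARS, the ends of the whole range. Of the scaffold mRNAs, AIMP1 had 61.4 FPKM with thalidomide and 63.1 FPKM with vehicle (−0.039 ± 0.038). AIMP2 had 34.5 FPKM with thalidomide and 35.9 FPKM with vehicle (−0.055 ± 0.050), and EEF1E1 had no row under that symbol. Class I enzymes had a median of −0.018 over 16 members and class II enzymes −0.072 over 15, EPRS having domains of both classes. Of all genes 41.0% lay above 0, a share that differs with level, as given further below. No difference between these subsets was tested.

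The mitochondrial enzymes had a median ratio of −0.062 over 12 members, with 3 above 0 and 9 below. Among genes with a mean of 2 to 25 FPKM, as these 12 have, 47.1% lay above 0. Beside FARS2, LARS2 and NARS2, the lower members were CARS2 for cysteine (−0.15), IARS2 (−0.13), PARS2 for proline (−0.10), RARS2 for arginine (−0.024), AARS2 for alanine (−0.016) and YARS2 for tyrosine (−0.012). Above 0 were MARS2 for methionine (0.046), WARS2 (0.058) and EARS2 for glutamate (0.090). WARS2 rested on about 145 fragments with thalidomide and 128 with vehicle, as worked out from its limits, which lay 16.6% from the value with thalidomide and 17.7% with vehicle. A difference of the size seen for most of these enzymes was not detectable for it at that depth.

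TARS2, the mitochondrial threonine enzyme, is outside the 34 symbols. It had 21.5 FPKM with thalidomide and 26.6 FPKM with vehicle (−0.30 ± 0.05), with limits apart, a lower ratio than that of any of the 12.

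The cytosolic enzyme over the mitochondrial enzyme for the same amino acid, within a library, is a value that scaling between libraries cannot change. The 12 mitochondrial genes allow 13 such ratios, since EPRS pairs with EARS2 and PARS2, and FARSA and FARSB both pair with FARS2. The cytosolic mRNA was the more abundant in 12 of 13 pairs in both libraries. MARS over MARS2 was highest, at 14.2 in the thalidomide library and 17.3 in the vehicle library. Isoleucine was the exception, with IARS over IARS2 at 0.805 ± 0.023 in the thalidomide library and 0.712 ± 0.021 in the vehicle library. In fragments worked out from the limits, IARS had more, 4700 against 1651 with thalidomide and 4120 against 1653 with vehicle. The order in FPKM thus rests on the transcript lengths used, and the ± holds no error in those lengths. IARS2 (18126099 to 18152718) and EPRS (18167012 to 18205003) are near neighbours on chromosome 3, with 1 annotated locus in the 14.3 kb between them, and their ratios as deposited lay on opposite sides of 0, while both were above 0 in the 2 rescalings.

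Across treatments 7 of the 13 pair ratios were higher with thalidomide and 6 lower. LARS over LARS2 was 3.13 ± 0.11 in the thalidomide library and 2.60 ± 0.09 in the vehicle library, a log2 difference of 0.27 ± 0.07. YARS over YARS2 was 4.33 ± 0.17 in the thalidomide library and 3.63 ± 0.15 in the vehicle library, a log2 difference of 0.25 ± 0.08. In the other direction the log2 difference was −0.29 ± 0.10 for MARS over MARS2 and −0.23 ± 0.08 for FARSB over FARS2. Such a value shows unequal change within a pair, not which enzyme changed.

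**Figure D3:**
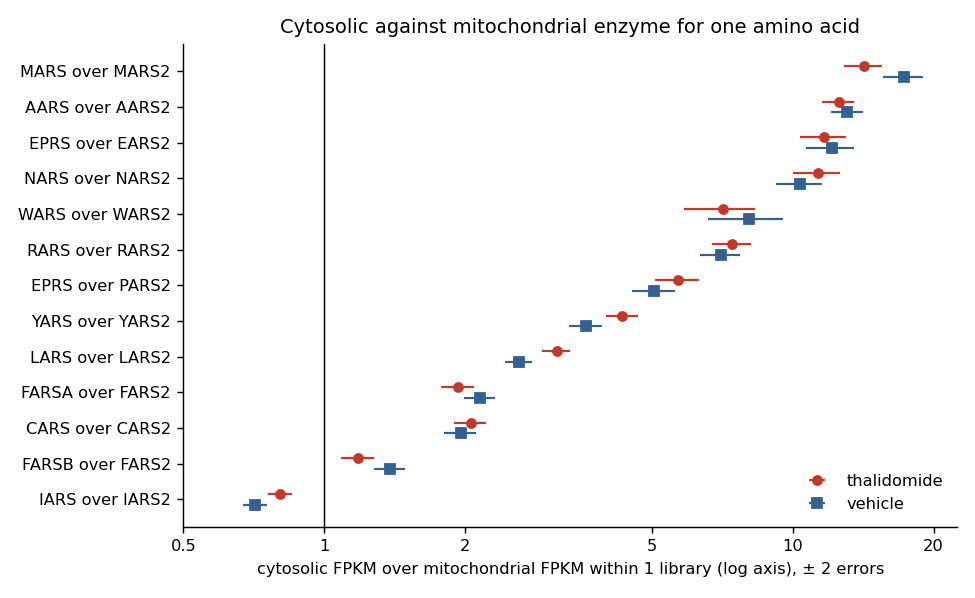
FPKM of the cytosolic enzyme over FPKM of the mitochondrial enzyme for the same amino acid, within the thalidomide library (circles) and within the vehicle library (squares), on a log axis with bars of 2 propagated errors. Of the 13 pairs shown, IARS over IARS2 is the 1 below 1, at 0.805 with thalidomide and 0.712 with vehicle.

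Abundant genes tended to have lower ratios (Spearman's rho −0.26 between ratio and mean FPKM across the 10905 genes, which share both libraries and are not independent), so the members were also set beside genes of like level. Among genes with a mean from 25 FPKM to 5 times that level, the median ratio was −0.14 over 2028 genes, of which 21.3% lay above 0. The 15 synthetases in that range had a median of −0.042, with 6 above 0. Limits lay apart on the higher side for 3 of these 15 and for 191 of the 2028 genes. On the lower side they did so for 4 of the 15 and for 1142 of the 2028. Quartiles of the 2028 genes were −0.25 and −0.025, and MARS (−0.23), QARS (−0.13) and AARS (−0.079) lay between them. Among genes with a mean of 2 to 25 FPKM the median was −0.015 over 7268 genes, of which 47.1% lay above 0, and −0.024 over 17 synthetases, with 6 above 0. In this lower range limits lay apart on the higher side for 0 of the 17 synthetases and for 1357 of the 7268 genes. On the lower side they did so for 3 of the 17 and for 1389 of the 7268. No difference between synthetases and genes of like level was tested.

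**Figure D4:**
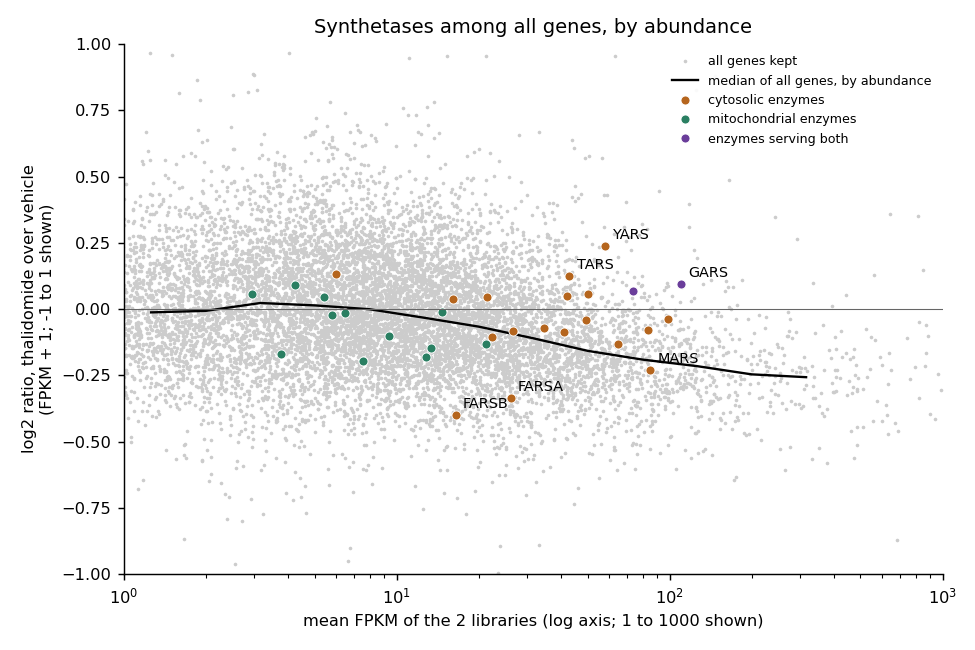
Log2 ratio of thalidomide over vehicle (FPKM + 1) against the mean FPKM of both libraries on a log axis, for all genes kept (grey points, with their median by abundance as a black line) and the synthetases (coloured points). GARS (0.094), TARS (0.12) and YARS (0.24) lie above the line, and FARSA (−0.34) and FARSB (−0.40) below it.

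Other genes that make, carry or use charged tRNA are described from lists of known genes. Of the cytosolic elongation factors, among them those that bring charged tRNA to the ribosome and move it along, all 5 measured were lower with limits apart. Their median of −0.21 stayed below 0 in both rescalings. Limits lay apart on the lower side for 26.9% of all genes and for 1142 of the 2028 genes in the abundance range from 25 FPKM described above, whose median was −0.14, and 4 of these 5 factors were more abundant than that range. Lowest was EEF1A1, listed in the files as EF1A and summed over 2 loci, with 4807 FPKM with thalidomide and 5922 FPKM with vehicle (−0.30). EEF1D followed (−0.21). EEF2, the translocation factor, had 820 FPKM with thalidomide and 921 FPKM with vehicle (−0.17), and EIF5A2 had −0.20. The 7 mitochondrial translation factors had a median of 0.0042, with MRRF, the ribosome recycling factor (−0.19), and GFM2 (−0.13) lowest and the initiation factor MTIF2 (0.20) and the release factor MTRF1 (0.16) highest.

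Genes for tRNA maturation, modification and export lay on both sides of 0, with 15 of 27 above it and a median of 0.026. Over all genes 41.0% lay above 0, with a median of −0.048. The highest were TSEN54, a subunit of the tRNA splicing endonuclease, with 8.94 FPKM with thalidomide and 6.57 FPKM with vehicle (0.39 ± 0.06), and the methyltransferase subunit TRMT61A (0.28 ± 0.11). The lowest were THG1L, which adds a guanosine to histidine tRNA (−0.29 ± 0.05), and POP5, a subunit of ribonuclease P (−0.25 ± 0.09). RNA polymerase III, which transcribes tRNA genes, and its factors had 7 of 16 above 0 and a median of −0.070. GTF3C3, a subunit of the factor TFIIIC, had 3.25 FPKM with thalidomide and 2.45 FPKM with vehicle (0.30 ± 0.09), while the polymerase subunit POLR3K had −0.35 ± 0.13, with overlapping limits, and GTF3C2 −0.23 ± 0.05.

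All 5 measured genes of the selenocysteine pathway, which converts seryl-tRNA and places selenocysteine in proteins, were below 0. So were 6432 of the 10905 genes kept. Limits lay apart on the lower side for 2 of the 5, against 26.9% of all genes. PSTK, the kinase acting on seryl-tRNA, had 12.5 FPKM with thalidomide and 16.5 FPKM with vehicle (−0.37 ± 0.09), and SEPHS1 had −0.32 ± 0.03. Nearest to 0 were SECISBP2 (−0.0074) and the elongation factor EEFSEC (−0.096). The median of −0.11 became 0.020 with both libraries at the same total. In the mitochondrial route to glutaminyl-tRNA, GATB had 0.034 ± 0.087 and QRSL1 0.014 ± 0.070, and MTFMT, which formylates initiator methionyl-tRNA, had 0.12 ± 0.07. DTD1, which removes D-amino acids from tRNA, had 26.0 FPKM with thalidomide and 30.2 FPKM with vehicle (−0.21 ± 0.05).

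Genes of the amino acid response were mostly higher with thalidomide. Of 17 measured genes 15 lay above 0, with a median of 0.20, 10 were higher and 2 lower with limits apart, and 3 were higher by 25% or more. Over all genes 41.0% lay above 0, 15.5% were higher and 26.9% lower with limits apart, and 6.14% were higher by 25% or more. SLC7A1, a cationic amino acid transporter listed in the files as cat-1, had 16.5 FPKM with thalidomide and 9.31 FPKM with vehicle (0.76 ± 0.06). PSPH, the last enzyme of serine synthesis, had 14.8 FPKM with thalidomide and 10.4 FPKM with vehicle (0.47 ± 0.10). Lowest were EIF2AK4, which encodes GCN2 (−0.20 ± 0.04), and ATF4 itself (−0.11 ± 0.01). ATF4 lay nearer to 0 than QARS (−0.13), whose ratio rose above 0 with both libraries at the same total. The direction of ATF4 likewise depends on scaling. The synthetases had a median of −0.041, and the difference between the lists was not tested.

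**Figure D5:**
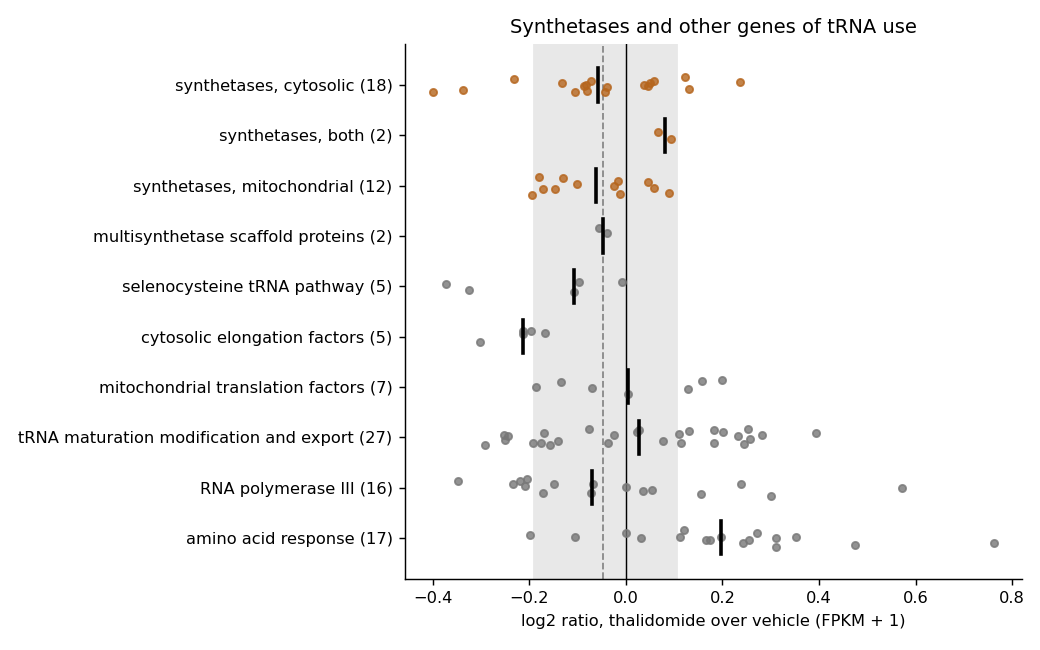
Log2 ratio of thalidomide over vehicle (FPKM + 1), 1 point per gene, for the synthetases of each compartment and for 7 lists of other genes, of tRNA supply and use and of the amino acid response. The number of genes is in brackets and a black bar stands at each median. The grey band spans the quartiles of all genes kept and the dashed line is their median; cytosolic elongation factors have a median of −0.21 and amino acid response genes one of 0.20.

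Limb mesenchyme markers were present in both libraries, with HOXD13 at 222 FPKM with thalidomide and 264 FPKM with vehicle. HOXA13 is listed at 0 in both, summed over 3 loci, with limits of 0. Whether such a 0 means no RNA or a locus that was not quantified cannot be told from these values. The 9 matched genes summed to 789 FPKM with thalidomide and 942 FPKM with vehicle, with 6 of the 8 kept below 0 and 2, the limb identity factors TBX5 (0.22) and TBX4 (0.16), above it with limits apart. Sums of markers of other cell types are set beside FPKM totals that were themselves lower with thalidomide, and members of a list did not all lie on the side of its sum. The counts by sign stand beside all genes kept, of which 41.0% lay above 0 and 6432 of 10905 below it. The 7 matched erythroid genes, led by HBAA and HBE, summed to 366 FPKM with thalidomide and 272 FPKM with vehicle, with 5 of 6 kept above 0. HBZ, summed over 2 loci, is listed at 0 in both with limits of 0, as HOXA13 is. The 7 endothelial genes, led by CDH5 and PECAM1, summed to 38.8 FPKM with thalidomide and 46.4 FPKM with vehicle, with 5 of 6 below 0 and KDR (0.14) above it with limits apart. The 6 muscle genes, led by ACTC1 and MYOD1, summed to 59.9 FPKM with thalidomide and 72.1 FPKM with vehicle, with 4 of 6 below 0. Neural genes, led by TUBB3 and ELAVL4, summed to 76.5 FPKM with thalidomide and 90.2 FPKM with vehicle, with 3 above 0, STMN2 highest at 0.47, and 3 below. Ectoderm genes, led by EPCAM and CDH1, summed to 46.6 FPKM with thalidomide and 53.5 FPKM with vehicle, with 4 of 6 below 0. Macrophage genes, led by CD74 and SPI1, summed to 11.9 FPKM with thalidomide and 13.7 FPKM with vehicle, with 3 of 4 below 0. PTPRC (0.27) was above 0 and CSF1R (−0.27) below it, each with limits apart. PTPRC, CSF1R and SPI1 all lay near the minimum of 1 FPKM. TBX5, TBX4, KDR, STMN2, PTPRC and CSF1R were named after their values were seen. Mitochondrially encoded transcripts took 11.3% of the FPKM total with thalidomide and 8.94% with vehicle. The part of these differences in the synthetase ratios was not tested.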

How the data were processed

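Total RNA from 1 tissue sample per treatment was sequenced. Tools named in the processing notes of the submitters are STAR 2.4.2a, Cufflinks 2.2.1, Cuffdiff and bcl2fastq, with the build galGal4, in no stated role. Not given in the sources used here were strand, read length, RNA selection and annotation release. The deposited tables hold FPKM per gene with lower and upper limits, per the file headers, and since these are no counts, no count test was run. Rows of the same symbol, letter case ignored, were summed (134 symbols), leaving 16736 genes, of which 10905 with at least 1 FPKM in either library were kept. Ratios are log2 of FPKM + 1. With the upper limit read as 2 SD above a count, the libraries held 23280002 fragments with thalidomide and 23361629 with vehicle, and in each library 92.7% of values under 10 fragments came out whole within 0.02. Members had a median of 1670 fragments with thalidomide and 1718 with vehicle, and uncertain assignment makes such figures too low. The members, lists, thresholds and rules were chosen with earlier results of these data known. Named were all members, the 2 highest and 2 lowest genes of each pathway list, and the 2 most abundant genes of each list for another cell type. Some genes that this rule would name are not reported here. Of 177 list entries 137 matched, 6 of them by an older symbol in a RefSeq gene table. Starts in the files count from 0, since the spans of 92.3% of 13 short coding loci were then multiples of 3, and are printed counted from 1. Alternatives changed the pseudocount, the filter, the scaling, the summing of loci and the placement of members. The ratio code was tested on simulated data. Python 3.11.15, pandas 2.3.3, numpy 2.4.6 and scipy 1.17.1 were used. Sequences were not used here.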

Additional observations from a re-analysis of the deposited data

How the results depend on the processing

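No paired analysis was possible because each treatment had 1 library. A pseudocount of 0.1, no filter, a filter at 5 FPKM (29 members kept), unsummed loci, loci under 300 bases left out and other placements of TARSL2, KARS and GARS left the medians within 0.048 of those reported and the counts within 1.5 times. That width, the median error of a member's ratio, is wide beside a median of −0.041 for all members. Within it the mitochondrial median ran from −0.10 with the filter at 5 FPKM to −0.020 with KARS and GARS added. With TARSL2 among the mitochondrial enzymes, the medians were −0.072 for cytosolic and −0.024 for mitochondrial ones. That is the reverse of the reported order. Scaling moved both. Centred on the median of all genes, the medians were 0.0070 for all members, −0.0092 for cytosolic and −0.014 for mitochondrial ones. Vehicle exceeded thalidomide by 25% or more for 1 member (FARSB), against 5.71% of all genes. Limits lay apart for 6 members higher and 4 lower, against 20.1% and 20.9% of all genes. With both libraries at the same FPKM total, the medians were 0.105, 0.090 and 0.070 for these sets of members. Above 0 lay 25 members, against 65.4% of all genes. By 25% or more 1 member (YARS) was higher and 0 lower, against 14.8% and 2.58% of all genes. Limits lay apart for 11 members higher and 3 lower, against 32.1% and 10.4% of all genes. With mitochondrially encoded and haemoglobin genes left out of that total, the medians were 0.14, 0.13 and 0.10. Above 0 lay 26 members, against 71.6% of all genes. By 25% or more 1 member (YARS) was higher and 0 lower, against 18.2% and 2.04% of all genes. Limits lay apart for 14 members higher and 2 lower, against 37.6% and 7.75% of all genes. In these rescalings AARS turned to 0.070 and 0.11, and QARS to 0.017 and 0.055. Rescaling by construction moves all genes with the members. Depth limits WARS2, NARS2 and EARS2 most, whose limits lay over 10% from the value.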
